A study of Mus musculus with 23 samples.

Results

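Forkhead transcription factors were followed across all arrays of a study of mice with an altered Meis1 allele. They were taken as every probe whose annotated symbol has the Fox prefix followed by a subfamily letter from a to s and a number. The array held 61 such probes for 41 genes, among 25697 probes and 16593 genes in all. There was 1 probe for each of 31 genes and several for each of 10, and probes of the same gene are not independent of each other.

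Meis1 encodes a homeobox transcription factor, and the series title links a MEIS1 variant to restless legs syndrome and to the embryonic ganglionic eminences. The tissue label of the embryos is forebrain, taken at E12.5, a mid-gestation stage, and that of the adults is brain, at 23 weeks. All mice were C57BL/6J. Each embryonic genotype had 3 males, and there were 5 wild types, 6 heterozygotes and 5 homozygotes at E12.5, the rest being females. The adult groups were 3 wild type and 4 heterozygous males. Each array held the RNA of 1 mouse. The labels name the allele only as Meis1 and do not describe the change it carries. The first part of the embryos' mouse numbers was read as a litter, which the labels do not state. Litter 509 held 3 embryos, 1 of each genotype, litter 542 held 2 wild types, 2 heterozygotes and 1 homozygote, litter 549 held 2 heterozygotes and 2 homozygotes, and litter 551 held 2 wild types, 1 heterozygote and 1 homozygote.

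Forkhead proteins bind DNA through a winged-helix domain. Members of the FoxA group can open closed chromatin, FoxO proteins leave the nucleus when insulin signalling through Akt phosphorylates them, and FoxM1 drives genes of mitosis in dividing cells. In the developing brain, Foxp1, Foxp2 and Foxp4 act mainly as repressors in neurons, Foxb1 and Foxd1 mark parts of the diencephalon, and Foxc1 is made by the meninges and by mural cells of vessels.

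The median signal ran from 164 to 210 on embryonic and from 119 to 143 on adult arrays, and 52.3% to 55.1% of the probes were detected, that is, had a detection p-value under 0.05. Values are log2 signals after background correction and quantile normalization. Of 15 genes chosen to mark the telencephalon 13 had a probe, and 9 of these were detected on all 16 embryonic arrays, while Emx2, Gsx2 and Pax6 were detected on none. Diencephalic genes (7 of 10 with a probe) and floor plate and midbrain genes (7 of 11) were also detected on all of them. Meis1 itself fell by 1.22 on the log2 scale in homozygotes against wild types (SE 0.12, limma, adjusted p = 0.000287). Its log2 change in heterozygotes was -0.40 ± 0.11 at E12.5 and -0.62 ± 0.19 in adults, neither past the threshold (adjusted p = 0.999 and 0.387). The sources used here do not place this probe relative to the altered sequence.

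Beside a change in Meis1, the starts of forkhead genes were read for the core hexamer TGACAG that MEIS proteins bind. Windows of 250 bases before to 50 after the start were given by RefSeq (GRCm38.p6) for 26 of the 41 genes, in 31 windows. The hexamer stood on either strand in 8 of these 31 windows (25.8%) and in 19.2% of all 32851 windows. The 8 genes were Foxo1, Foxd1, Foxd3, Foxi1, Foxj3, Foxn1, Foxp1 and Foxp3. The windows of Foxc1 (chr13:31806396-31806695, plus strand) and Foxo1 (chr3:52268087-52268386, plus strand) are shown as examples. Both genes had positive changes with an unadjusted p under 0.05 in homozygotes (limma). So did 1 probe of Foxj3, whose window is not shown. The hexamer, on the minus strand in Foxo1, is in capitals and begins 9 bases before the start. The Foxc1 window does not hold these letters, which says nothing of MEIS binding elsewhere.
Foxc1: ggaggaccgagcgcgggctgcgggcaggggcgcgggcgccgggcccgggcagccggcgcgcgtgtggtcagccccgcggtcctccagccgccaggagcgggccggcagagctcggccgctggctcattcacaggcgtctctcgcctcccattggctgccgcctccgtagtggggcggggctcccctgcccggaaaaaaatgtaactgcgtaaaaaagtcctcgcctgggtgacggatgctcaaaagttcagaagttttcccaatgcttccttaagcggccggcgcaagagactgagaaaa
Foxo1: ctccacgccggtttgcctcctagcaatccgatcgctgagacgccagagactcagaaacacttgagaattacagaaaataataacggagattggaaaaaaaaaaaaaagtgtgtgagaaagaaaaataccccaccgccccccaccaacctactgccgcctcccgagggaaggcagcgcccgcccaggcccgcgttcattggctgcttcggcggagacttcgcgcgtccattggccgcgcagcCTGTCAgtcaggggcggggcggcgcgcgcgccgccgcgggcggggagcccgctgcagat
The forkhead core GTAAACA stood in the window of 1 of the 26 genes, Foxa1, and in 3.65% of all windows. No forkhead window held both motifs. A match is a description of letters and not evidence of a bound site.

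Of the 41 genes, 16 had no probe detected on any of the 23 arrays. They were Foxa3, Foxb2, Foxd3, Foxd4, Foxe1, Foxf1, Foxf2, Foxh1, Foxi2, Foxl1, Foxn1, Foxn2, Foxo3, Foxo4, Foxr1 and Foxr2. A probe below detection does not show that its gene is silent. The probe of Snap25, listed as a neuron gene, was also detected at neither stage. Genes with a probe detected on all 16 embryonic arrays numbered 14, and 12 genes had one on all 7 adult arrays. The 14 were Foxa1, Foxc1, Foxj1, Foxj2, Foxj3, Foxk1, Foxm1, Foxn3, Foxo1, Foxo6, Foxp1, Foxp2, Foxp4 and Foxq1. After the filter on dim probes, 30 probes of 22 genes entered the tests in embryos, 23 probes of 16 genes those in adults, and 32 probes of 23 genes those between the stages. Foxa2, a floor plate factor, and Foxi1 were each detected on 1 homozygous array only and entered no test, and Foxe3, a lens factor, entered only the comparison of the stages.

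No forkhead probe differed between homozygous and wild type forebrains at an adjusted p under 0.05, with a lowest adjusted p of 0.381 (limma), while 0.0488% of all 14340 probes passed. An unadjusted p under 0.05 was reached by 6 of the 30 probes, beside 11.8% of all probes. Of these, 5 were higher and 1 lower in homozygotes, beside 5.74% and 6.07% of all probes. The change was above 0 for 22 of the 30, beside 50.6% of all probes. Counted once a gene by the probe of highest mean signal, it was above 0 for 14 of 22 genes. By that count 4 genes had an unadjusted p under 0.05 (limma). The 30 changes ran from -0.36 to 0.57 with a median of 0.07, beside a median of 0.00 (0.00299) over all probes.

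Foxc1, a regulator of the meninges and of mural cells, had the largest change of the 30. Its log2 signal in wild types was 8.19 in litter 509, 8.52 and 9.17 in litter 542, and 7.84 and 8.21 in litter 551. In heterozygotes it ranged from 7.98 to 9.27 with a median of 8.88. In homozygotes it was 8.83 in litter 509, 9.45 in litter 542, 8.38 and 8.98 in litter 549, and 8.72 in litter 551. The groups overlapped, the highest embryo of each genotype came from litter 542, and the lowest wild type and heterozygote came from litter 551. With sex and litter in the fit, the change was 0.57 ± 0.17 (SE) in homozygotes (unadjusted p = 0.00488, adjusted p = 0.381) and 0.41 ± 0.16 in heterozygotes (unadjusted p = 0.0236, adjusted p = 0.999), as given by limma. Within litters, the homozygote stood above the wild types by 0.64 in litter 509, 0.60 in litter 542 and 0.69 in litter 551, and the heterozygotes differed from them by 0.85, 0.20 and -0.04. Without litter 509, which was left out after the data were seen, the heterozygote change was 0.24.

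Genes of meninges and connective tissue were read beside Foxc1, since cells and RNA per cell cannot be told apart in bulk tissue. None of the 10 measured passed the threshold in homozygotes against wild types (limma), 8 of 10 had positive changes, and the median was 0.21. The collagen gene Col1a1 had a log2 change of 0.69 ± 0.22 (SE, adjusted p = 0.381) and Twist1, a mesenchymal factor, one of 0.58 ± 0.22 (adjusted p = 0.387). These were the largest of the 10. The collagen genes Col1a2 and Col3a1 had changes of 0.03 and -0.06, Dcn had 0.03 and Zic1 had -0.07. Summed signals of the 12 genes with a probe ranged from 11972 to 15733 in wild types, from 11687 to 15236 in heterozygotes and from 13223 to 16025 in homozygotes, and Postn was not detected on any embryonic array. Their part in the Foxc1 values was not tested. Foxc2, the close relative of Foxc1 in mesenchyme, had a log2 change of 0.37 ± 0.25 (SE) and was detected on 3 of 5 wild type arrays and on all 11 others.

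**Figure D1:**
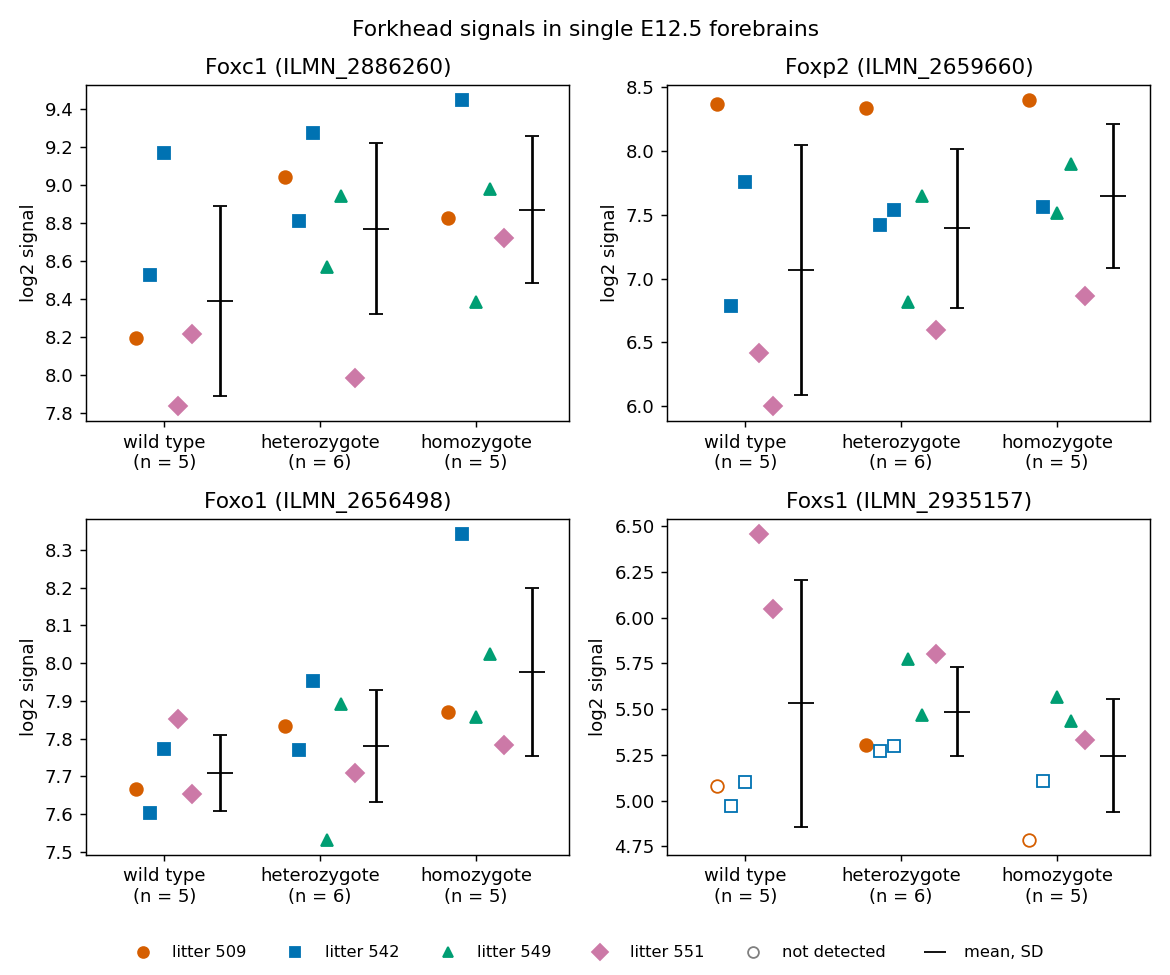
Log2 signal (vertical axis) of Foxc1, Foxp2, Foxo1 and Foxs1 in single E12.5 forebrains by genotype (horizontal axis). Each point is 1 embryo with its litter given by colour and shape, open points were not detected, and bars are the mean and SD of 5, 6 and 5 embryos. All 4 genes overlap between genotypes, and Foxp2 is highest in litter 509 in every genotype.

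Foxp2, a repressor of the FoxP group in cortical, striatal and thalamic neurons, was read by 3 probes that were detected on every embryonic array. For probe ILMN_2659660, wild types gave 8.37 in litter 509, 6.79 and 7.76 in litter 542, and 6.00 and 6.41 in litter 551. Heterozygotes ranged from 6.59 to 8.34 with a median of 7.48. Homozygotes gave 8.40 in litter 509, 7.56 in litter 542, 7.51 and 7.90 in litter 549, and 6.86 in litter 551. The spread between litters was thus wider than that between genotypes, and the 3 values of litter 509 were nearly equal. The log2 change in homozygotes was 0.45 ± 0.21 (SE, unadjusted p = 0.0473, adjusted p = 0.420) for this probe and 0.45 ± 0.21 for ILMN_2659663, but 0.06 ± 0.18 for ILMN_3140000, as given by limma. The remaining Foxp2 probe, ILMN_2701613, was detected on 1 array only.

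Foxo1, the FoxO factor downstream of insulin signalling, gave 7.67 (litter 509), 7.60 and 7.77 (542) and 7.65 and 7.85 (551) in wild types. Homozygotes gave 7.87 (509), 8.34 (542), 7.86 and 8.02 (549) and 7.78 (551). The groups overlapped, with the homozygote of litter 542 highest. The change was 0.30 ± 0.12 (SE, limma, unadjusted p = 0.0314, adjusted p = 0.409), and within litters it was 0.20, 0.65 and 0.03 in litters 509, 542 and 551. Without litter 551, left out after the data were seen, it was 0.45, and without the homozygous female of litter 542 it was 0.19. Of 16 measured genes of insulin signalling and FoxO targets, 8 had positive changes, 0 passed the threshold (limma), and the median was -0.00 (-0.00464).

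Foxs1, a forkhead factor of pericytes and neural crest derivatives, was the 1 member lower in homozygotes at an unadjusted p under 0.05. Wild types gave 5.08 (509), 4.97 and 5.10 (542) and 6.05 and 6.46 (551), of which only the embryos of litter 551 were above background. Homozygotes gave 4.79 (509), 5.11 (542), 5.44 and 5.57 (549) and 5.33 (551). The 2 high wild types came from 1 litter, and the groups overlapped. The change of -0.36 ± 0.15 (SE, limma, unadjusted p = 0.0305, adjusted p = 0.409) was -0.06 without litter 551. The 7 pericyte genes had a median change of -0.01, and 3 of them were positive. The 3 measured neural crest genes, Ets1, Tfap2a and Tfap2b, had positive changes with a median of 0.38, opposite in sign to that of Foxs1, and none passed the threshold (adjusted p between 0.358 and 0.864). Summed signals of the 3 ranged from 1105 to 1935 in wild types and from 1378 to 2152 in homozygotes.

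Foxm1 and Foxj3 completed the 6 probes. The log2 change of the Foxm1 probe ILMN_1239314 was 0.23 ± 0.10 (SE, unadjusted p = 0.0359) and that of the other Foxm1 probe 0.13 ± 0.11. For Foxj3 it was 0.35 ± 0.16 (unadjusted p = 0.0459) on probe ILMN_2729171, whereas it was -0.13 ± 0.12 on ILMN_2650040. The other Foxj3 probes had changes of 0.09, 0.07 and 0.02, so ILMN_2650040 alone was negative, and none passed the threshold. The 5 measured mitosis genes known as FoxM1 targets had a median change of -0.09 with 1 of 5 positive.

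In heterozygous against wild type forebrains 0 of the 30 probes passed the threshold (limma, adjusted p = 0.999 for the lowest), and 0% of all probes did. An unadjusted p under 0.05 was reached by 2, beside 3.32% of all probes. They were Foxc1, given above, and Foxp3, the factor of regulatory T cells, whose signal near background had a change of -0.26 ± 0.11 (SE) and was detected on 5 of 5 wild type and 3 of 6 heterozygous arrays. Among males only its change was -0.01. Homozygotes against heterozygotes likewise gave 0 calls, beside 0.0697% of all probes, with a lowest adjusted p of 0.599 (limma). Here 1 probe had an unadjusted p under 0.05, beside 8.33% of all probes, namely Foxj3 ILMN_2729171 with a change of 0.45. These 3 comparisons share their groups, so their values are not independent.

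**Figure D2:**
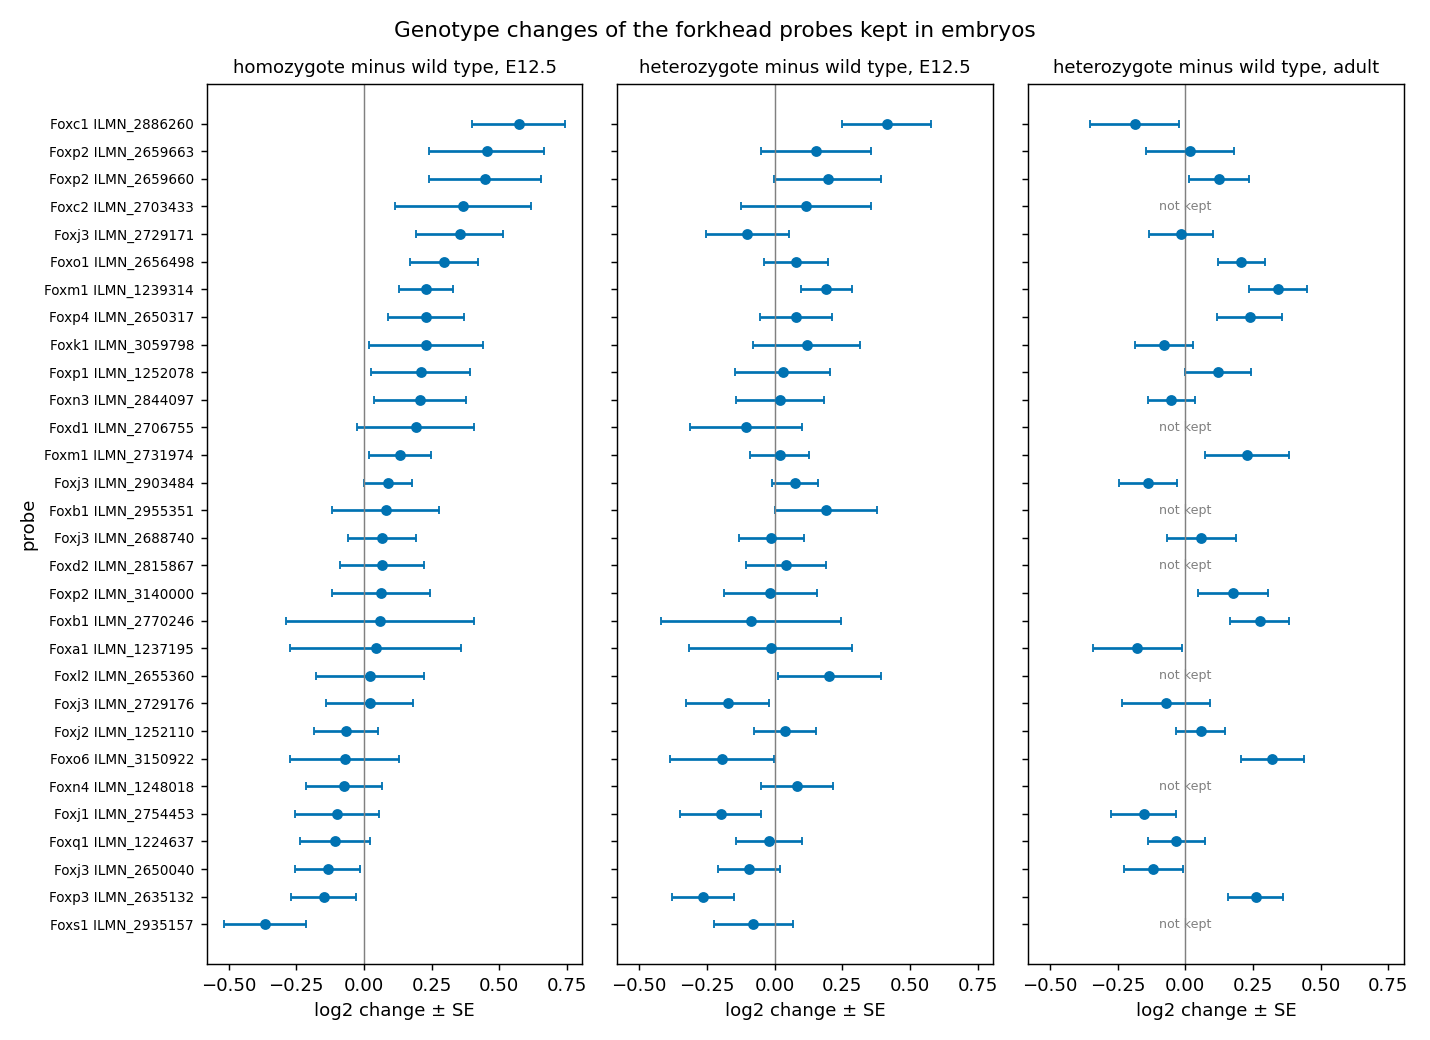
Log2 change with its standard error (horizontal axis) for the 30 forkhead probes tested in embryos (vertical axis), in homozygotes and heterozygotes against wild types at E12.5 and in adult heterozygotes against wild types. The adult fit tested 23 forkhead probes, so the others have no adult change. Foxc1 lies at 0.57, 0.41 and -0.19 in the 3 panels, and no probe passed the adjusted threshold in any of them.

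Litters separated the forkhead genes more than genotype did in number of calls. With genotype and sex in the fit, 13 of the 30 probes differed between the 4 litters by the F test of limma, beside 34.0% of all probes, so that the share among forkhead probes was near the background. Counted by the probe of highest mean signal, 10 of the 22 genes differed. Of the 13 probes, 8 were highest in litter 509 and 9 were lowest in litter 551. Of the 10 genes, 5 were highest in litter 509 and 6 lowest in litter 551. The matching shares over all called probes were not counted, so these counts describe the members only. Over all probes, 39.6% of the variance lay on the first principal component, of which litter explained 91.3% in the statistical sense. A litter here also stands for whatever its embryos shared in exact age, dissection and array handling, which cannot be told apart.

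Counted in that way, Foxp2 had the largest F of the 22 genes. Probe ILMN_2659660 averaged 8.37 ± 0.03 (SD, n = 3) in litter 509, 7.41 ± 0.37 (n = 5) in litter 542, 7.47 ± 0.46 (n = 4) in litter 549 and 6.47 ± 0.36 (n = 4) in litter 551. The lowest value of litter 509, 8.34, lay above the highest of every other litter, 7.90, and the highest of litter 551 was 6.86. The fitted deviations from the mean of the litters were 0.93 in litter 509 and -0.90 in litter 551 (limma, adjusted p = 0.000414). The probe ILMN_2659663 gave 0.88 and -0.81 (adjusted p = 0.000703). The probe ILMN_3140000 gave 0.25 and 0.12 and did not pass (adjusted p = 0.178), so the 3 Foxp2 probes did not show 1 pattern.

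Foxj3, a widely expressed forkhead factor, had probes that ran opposite ways between litters. ILMN_2729171 averaged 6.60 ± 0.21 (SD, n = 3) in litter 509 and 5.21 ± 0.30 (n = 4) in litter 551, where 2 of 4 arrays were above background (limma, F = 22.3, adjusted p = 0.000341). ILMN_2729176 followed it, with deviations of 0.62 and -0.65 (adjusted p = 0.000983). The probe ILMN_2650040 was instead highest in litter 551 at 8.99 ± 0.20 and lowest in litter 542 at 8.31 ± 0.11 (adjusted p = 0.00226). No single level of Foxj3 can therefore be given for a litter.

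Foxq1, known for its part in hair and stomach epithelium in mice, averaged 8.79 ± 0.12 in litter 509 (SD, n = 3) and 7.87 ± 0.18 in litter 551 (n = 4), and these ranges did not overlap (limma, adjusted p = 0.00158). Foxs1 ran the other way, with 5.91 ± 0.47 in litter 551 (n = 4) and 5.06 ± 0.26 in litter 509 (n = 3), where 1 of 3 arrays was above background (adjusted p = 0.00209). Foxc1 was highest in litter 542, at 9.04 ± 0.37 (n = 5), and lowest in litter 551, at 8.19 ± 0.39 (n = 4) (adjusted p = 0.00700). Each of these 3 genes thus ranked the litters differently at the upper end.

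The other 5 called genes were Foxa1, Foxd1, Foxo6, Foxn3 and Foxj2. Foxa1, a pioneer factor of floor plate and dopaminergic progenitors, averaged 8.32 ± 0.22 (SD, n = 3) in litter 509 and between 6.97 and 7.32 in the other litters (limma, adjusted p = 0.0347). Foxd1, a factor of the ventral diencephalon, deviated by 0.44 in litter 549 and by -0.55 in litter 509 (adjusted p = 0.0233). Foxo6, a neuronal FoxO factor, deviated by 0.60 in litter 509 and -0.46 in litter 551 (adjusted p = 0.00471). Foxn3, a repressor tied to the cell cycle checkpoint, deviated by 0.43 and -0.49 in the same litters (adjusted p = 0.0121), and Foxj2 by 0.24 in litter 549 and -0.25 in litter 542 (adjusted p = 0.0461). Foxo1, Foxm1, Foxp1, Foxp4, Foxk1, Foxj1, Foxb1 and Foxp3 were among the 12 genes not called, with adjusted p between 0.114 and 0.882 for all their probes.

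**Figure D3:**
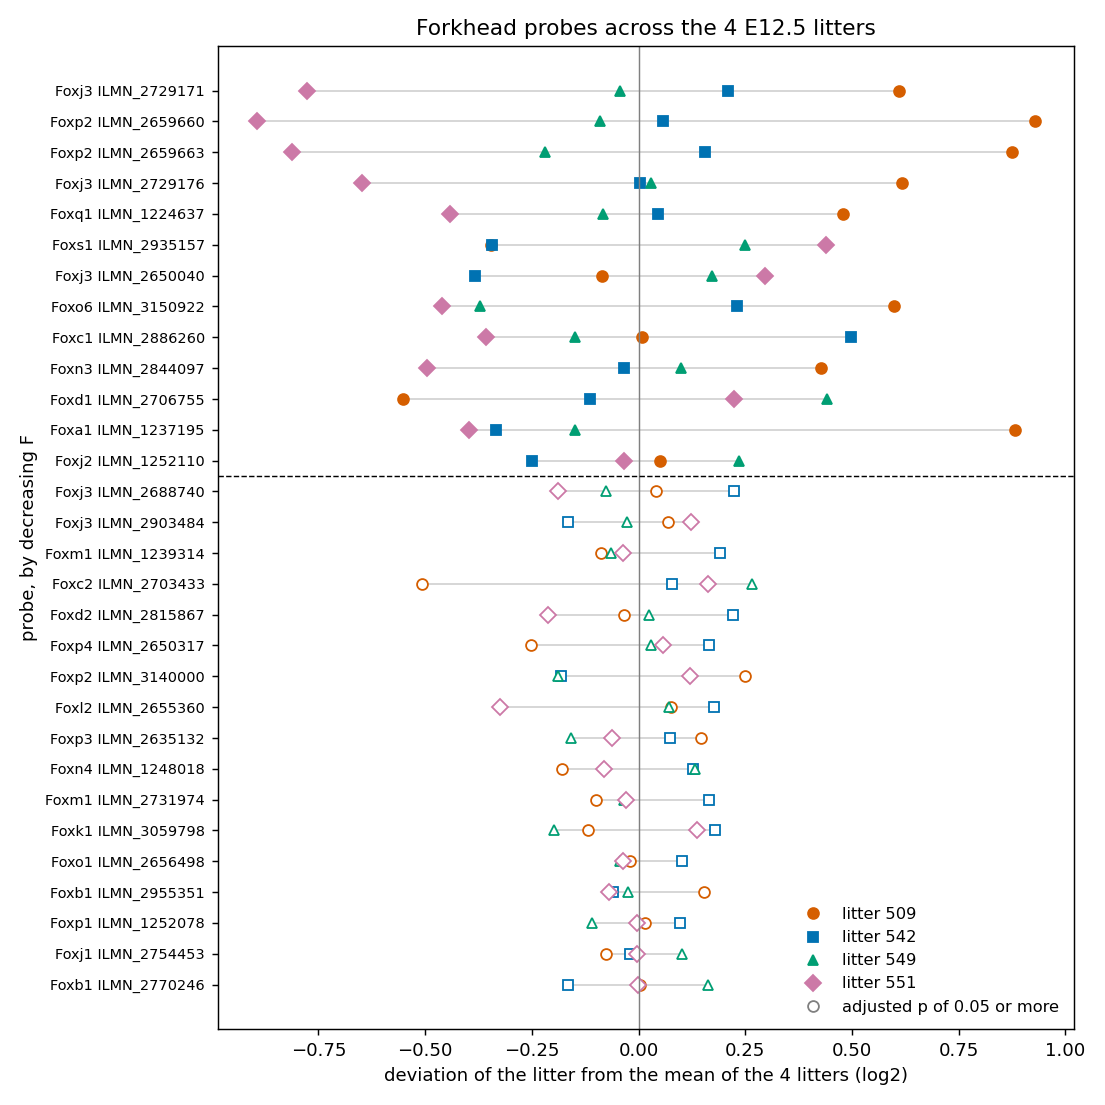
Fitted deviation of each litter from the mean of the 4 litters (horizontal axis, log2) for the 30 forkhead probes, ordered by decreasing F from top to bottom. Filled symbols above the dashed line mark the 13 probes past the threshold, of which 8 have litter 509 furthest to the right and 9 have litter 551 furthest to the left.

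Genes listed as markers of neurons, diencephalon and floor plate were set beside these values, against 34.0% of all probes called between litters. All 5 measured neuron genes differed between litters (limma), but not in 1 direction. Stmn2, Dcx, Rbfox3 and Syt1 deviated by 0.30 to 0.54 in litter 509, whereas Tubb3, a neuronal tubulin, deviated by -0.28 there and by 0.37 in litter 551 (adjusted p = 0.0299). Their summed signals over 6 genes ranged from 10132 to 13616 in litter 509, from 6988 to 10248 in litter 542, from 7345 to 9340 in litter 549 and from 9256 to 10545 in litter 551, and Snap25 was not detected. Of 7 diencephalic genes, 4 differed between litters, with a median of 0.33 in litter 509, where Foxd1 deviated by -0.55. Their summed signals over 10 genes were 9343 to 10364 in litter 509, 5683 to 7669 in litter 542, 5340 to 7173 in litter 549 and 4351 to 8089 in litter 551, and Otp, Rax and Sim1 were not detected. Of 7 measured floor plate and midbrain genes, read beside Foxa1, 2 differed between litters, Msx1 with -0.33 and Nr4a2 with 0.57 in litter 509, and the median there was -0.01. Their summed signals over 11 genes were 2532 to 3074 in litter 509 and 2410 to 4030 in the other litters, and Lmx1b, Pitx3 and Wnt1 were not detected. The part of cell makeup or dissection in the Foxp2, Foxd1 and Foxo6 values was not tested.

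Of 9 genes listed as FoxP partners and targets, 4 differed between litters (limma), with a median deviation of 0.19 in litter 509. The 4 did not run 1 way in that litter. Mef2c deviated by 0.54 and Tbr1 by 0.19, while Cntnap2, a FoxP2 target, deviated by -0.42 and Nkx2-1 by -0.32 (adjusted p between 0.00494 and 0.0158).

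The litter calls rested in good part on litter 551. Without it, as an alternative chosen after the data were seen, 3 of 29 forkhead probes were called, beside 9.2% of all 13981 probes. Without litter 509, 9 of 28 were called, beside 23.8% of all probes. Among males alone 5 of 28 were called, beside 10.1% of all probes.

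In adult brains, 0 of the 23 tested forkhead probes passed the threshold between heterozygotes and wild types (limma, lowest adjusted p = 0.404), and 0% of all 14266 probes did. An unadjusted p under 0.05 was reached by 5, all higher in heterozygotes, beside 10.6% of all probes in both directions and 5.02% higher. Changes over the 23 probes ran from -0.19 to 0.34 with a median of 0.06, beside 0.01 (0.00530) over all probes.

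The Foxm1 probe ILMN_1239314 was below background in the 3 wild types, at 4.72, 4.75 and 4.80, and detected in the 4 heterozygotes, at 4.86, 5.13, 5.20 and 5.22. The groups did not overlap, and the heterozygotes were at least 1.24-fold higher than the lowest detectable signal (limma, adjusted p = 0.404). Such a bound compares the mean of the detected group with the lowest signal among detected probes on each array of the other group. The second Foxm1 probe, detected on all 7 arrays, had a log2 change of 0.23 ± 0.15 (SE). Foxo1 gave 7.32, 7.40 and 7.40 in wild types and 7.52, 7.58, 7.59 and 7.63 in heterozygotes, without overlap, a change of 0.21 ± 0.09 (SE, limma, adjusted p = 0.451). The share of all adult probes without overlap between the genotypes was not counted. The lack of overlap for Foxm1, Foxo1 and Foxp3 is therefore a description only.

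Foxo6 gave 4.75, 4.91 and 5.03 in wild types and 4.98, 5.23, 5.29 and 5.39 in heterozygotes, with overlap, a change of 0.32 ± 0.12 (SE, limma, adjusted p = 0.418). Foxp3 gave 4.69, 4.88 and 4.89 against 4.97, 4.98, 5.17 and 5.19, without overlap, a change of 0.26 ± 0.10 (adjusted p = 0.434). Foxb1, a factor of the mammillary region, was detected in 0 of 3 wild types and 3 of 4 heterozygotes, at least 1.14-fold higher (adjusted p = 0.438). All 3 lay close to background. Without background correction the log2 changes were 0.08 for Foxo6, 0.07 for Foxp3 and 0.09 for Foxm1 ILMN_1239314.

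Foxc1 in adults gave 5.80, 6.05 and 6.25 in wild types and 5.47, 5.77, 5.96 and 6.19 in heterozygotes, which overlapped, a change of -0.19 ± 0.16 (SE, limma, adjusted p = 0.673). The 3 Foxp2 probes had log2 changes between 0.02 and 0.18. The heterozygote effect was also tested against that at E12.5 in 1 fit of all 23 arrays. None of 32 probes differed (limma, lowest adjusted p = 0.392), and 0% of all 16352 probes did. An unadjusted p under 0.05 was reached by 3, beside 6.78% of all probes. The difference, adult minus E12.5, was 0.60 ± 0.16 (SE) for Foxp3, 0.62 ± 0.26 for Foxo6 and -0.64 ± 0.27 for Foxc1. For Foxp2 ILMN_2659660 it was -0.02 ± 0.27.

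Adult brain and E12.5 forebrain differed in most forkhead genes, but in a smaller share of forkhead probes than of all probes. The forkhead differences were mainly downward in the adult. Of 32 probes, 22 passed the threshold (limma), 4 higher and 18 lower in adults, beside 80.9% of all 16352 probes, of which 36.6% were higher and 44.3% lower. The median change was -0.32 over forkhead probes and -0.11 over all probes. With each array scaled to its median in place of quantiles, the median of all probes moved to -0.36 and the higher share of all calls from 45.2% to 33.7%, while 4 forkhead probes were higher and 19 lower. Because the filter keeps a probe that is detected in either stage, these counts describe the probes and lend no support of their own. Stage, the piece of tissue and the array run cannot be told apart. Without background correction several falls were smaller, with log2 changes of -2.24 for Foxm1 ILMN_1239314, -1.04 for Foxc1, -0.73 for Foxp2 ILMN_2659660 and -0.45 for Foxo6, all still past the threshold.

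**Figure D4:**
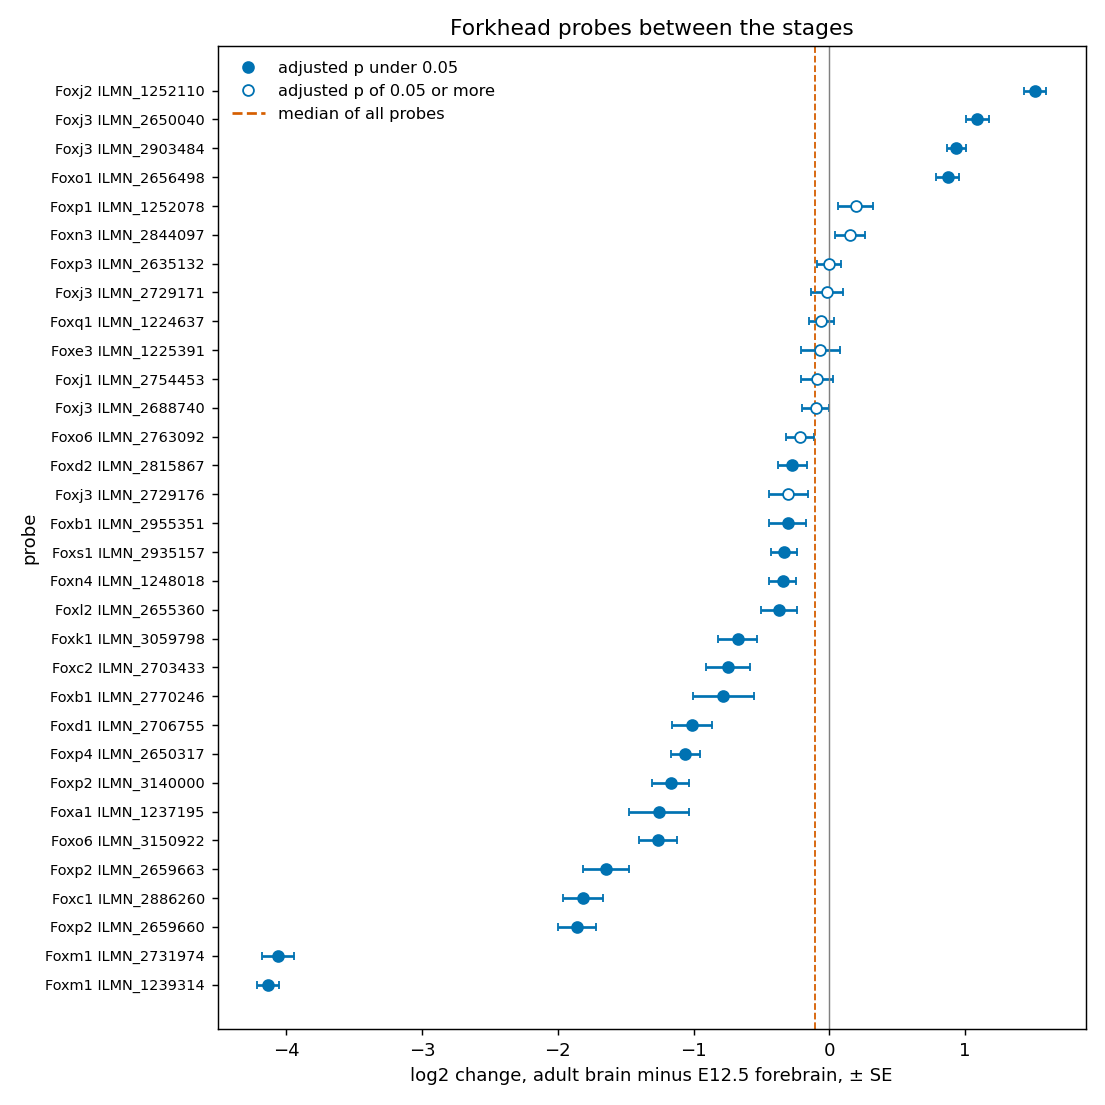
Log2 change of adult brain against E12.5 forebrain (horizontal axis, with standard error) for 32 forkhead probes (vertical axis), from wild types and heterozygotes. The dashed line is the median of all probes, -0.11, and filled points passed the threshold, 18 of them below 0 and 4 above.

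Foxm1, which drives mitotic genes, showed the largest change. On the joint scale probe ILMN_1239314 ranged from 9.19 to 9.79 with a mean of 9.44 ± 0.18 (SD, n = 11) in wild type and heterozygous embryos. In adults it ranged from 4.99 to 5.67 with a mean of 5.31 ± 0.30 (n = 7), of which 4 arrays were above background. The gap between the stages, 3.52, was many times the spread within either. It fell by 4.13 on the log2 scale (limma, adjusted p = 4.59e-21), and the other Foxm1 probe fell by 4.06 (adjusted p = 3.01e-18). All 5 measured mitosis genes known as FoxM1 targets fell too, with a median of -5.33, among them Birc5 by 6.83, Cdc20 by 6.22 and Plk1 by 5.13. Their summed signals over 9 genes were 15245 to 18868 in embryos and 461 to 516 in adults, and Bub1, Ccnb2, Kif20a and Nek2 were not detected at either stage.

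Foxc1 averaged 8.34 ± 0.48 (SD, n = 11) in embryos, with 7.59 as the lowest, and 6.57 ± 0.34 (n = 7) in adults, with 6.97 as the highest, so the stages did not overlap. It fell by 1.81 (limma, adjusted p = 1.68e-10). Foxc2 fell by 0.75 and was detected on 1 of 7 adult arrays. Of 10 measured meningeal and connective tissue genes, 8 fell and 0 rose, with a median of -1.89, and their summed signals over 12 genes went from a range of 9676 to 13035 in embryos to one of 4166 to 5660 in adults. Col3a1, Tbx18 and Postn were not detected in adults. Pericyte genes, read for the mural cells, went otherwise: of 7 measured, 2 rose and 1 fell, with a median of -0.01. Their summed signals were 851 to 1258 in embryos and 1452 to 1771 in adults. The part of cell makeup in the Foxc1 change was not tested.

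Foxp2 ILMN_2659660 ranged from 5.83 to 8.12 in embryos and from 5.09 to 5.64 in adults, without overlap. The 3 Foxp2 probes fell by 1.86, 1.64 and 1.17 (limma, adjusted p between 8.05e-11 and 6.34e-08). Foxp4 fell by 1.06 (adjusted p = 8.42e-09), whereas the change was 0.19 ± 0.13 (SE, adjusted p = 0.179) for Foxp1 and -0.01 ± 0.09 (adjusted p = 0.956) for Foxp3. Within the FoxP group, therefore, Foxp2 and Foxp4 passed the threshold and Foxp1 and Foxp3 did not, and differences between genes were not tested. Of 9 FoxP partners and targets, 3 rose and 5 fell, with a log2 change of 3.35 for Mef2c and -1.83 for Cntnap2.

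Foxo6 fell by 1.26 on probe ILMN_3150922 (limma, adjusted p = 3.90e-08), with 5.70 to 7.27 in embryos and 5.03 to 5.89 in adults, which overlapped. The other Foxo6 probe, ILMN_2763092, had a change of -0.22 and did not pass the threshold. Foxa1 fell by 1.26 (adjusted p = 2.59e-05), Foxk1, a repressor of autophagy genes, fell by 0.68 and Foxb1 fell by 0.78 on probe ILMN_2770246. Foxd1 was detected on 10 of 11 embryonic and 0 of 7 adult arrays and was at least 1.53-fold lower in adults (adjusted p = 1.69e-06). Foxs1, detected on 6 of 11 and 0 of 7, was at least 1.19-fold lower (adjusted p = 0.00378). Among 7 diencephalic genes 6 fell, with a median of -2.26 and summed signals over 10 genes of 3618 to 8605 in embryos and 1368 to 1624 in adults. Foxl2, detected on 6 of 11 embryonic and 1 of 7 adult arrays, fell by 0.37, and Foxn4, detected on 8 of 11 and 1 of 7, fell by 0.34. Foxd2 and the other Foxb1 probe were detected on 3 and 5 of 11 embryonic arrays and on 0 of 7 adult arrays. Both passed the threshold as lower, and no fold is given because their bound was under 1.

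The genes that rose were Foxj2, Foxj3 and Foxo1. Foxj2 ranged from 6.37 to 7.29 in embryos and from 8.37 to 8.59 in adults and rose by 1.51 ± 0.08 (SE, limma, adjusted p = 1.61e-13). The Foxj3 probes ILMN_2650040 and ILMN_2903484 rose by 1.09 and 0.93 (adjusted p = 1.75e-10 and 5.69e-11), while the other 3 had changes of -0.10, -0.02 and -0.30 and did not pass. Foxo1 ranged from 7.30 to 7.71 in embryos and from 8.17 to 8.51 in adults and rose by 0.87 ± 0.08 (adjusted p = 3.15e-09). None of these ranges overlapped between the stages. With median scaling the rises were smaller, 0.41 and 0.27 for Foxj3 and 0.30 for Foxo1, and still passed the threshold. Of 17 measured insulin and FoxO pathway genes, 7 rose and 7 fell, among them the known FoxO targets Bcl6 (3.89), Pdk4 (2.24) and Cdkn1b (-2.19).

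**Figure D5:**
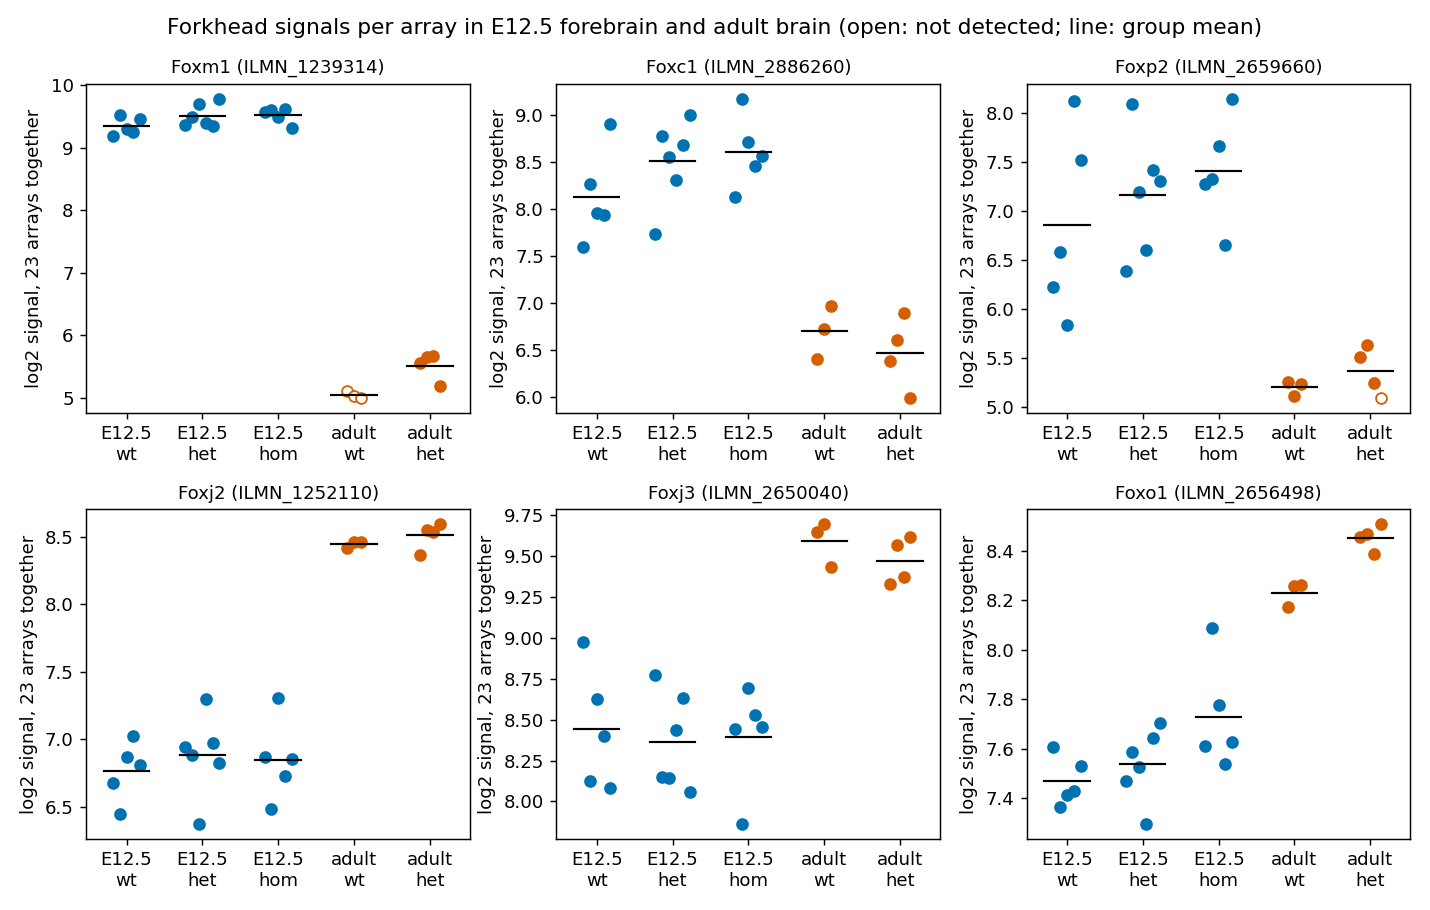
Log2 signal on the joint scale (vertical axis) of 6 forkhead genes on each of the 23 arrays by stage and genotype (horizontal axis). Lines are group means and open points were not detected. Foxm1, Foxc1 and Foxp2 lie lower and Foxj2, Foxj3 and Foxo1 higher on the 7 adult arrays than on the wild type and heterozygous embryonic arrays.

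Several members did not pass the threshold between the stages. Foxj1, the factor of motile cilia, had a log2 change of -0.09 ± 0.12 (SE), Foxq1 of -0.06 ± 0.09, Foxn3 of 0.15 ± 0.11 and Foxe3 of -0.07 ± 0.14 (limma, adjusted p between 0.223 and 0.671). A miss of the threshold does not show equal levels. Of 6 ciliated cell genes read beside Foxj1, 1 rose and 4 fell. Ranges of wild type and heterozygous embryos and of adults did not overlap for 12 of the 32 forkhead probes (37.5%), beside 53.7% of all probes.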

How the data were processed

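Total RNA of 23 mice was measured on Illumina arrays read with GenomeStudio 2011.1, per the submitters' processing notes. The raw deposited table gives 1 intensity per probe and array, before any normalization, and a detection p-value, per the file headers. The authors' second deposited table holds a processed intensity, and the sources used here leave its scaling unstated. It was floored at 10 and used only as an alternative.

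Signals were background-corrected with neqc of limma 3.58.1 (R 4.3.3, offset 16), quantile normalized and taken as log2 values. The 16 embryonic and 7 adult arrays went through this in separate runs, and all 23 in 1 run to compare the stages. Probes detected on at least 5 embryonic arrays, or 3 adult or joint arrays, were kept, which left 14340, 14266 and 16352 probes. Models were fitted with limma (lmFit, eBayes, two-sided), with sex and litter as terms in embryos, genotype alone in adults, and sex and litter in the joint fit, and Benjamini-Hochberg adjustment over all kept probes at 0.05. The embryonic fit had 9 residual degrees of freedom. The labels state no separate cultures or draws beyond 1 mouse per array, and p-values measure the spread between these mice. The number of arrays limits the precision. The fits were tested on simulated data.

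Members and lists were chosen with earlier results of these data known. Genes were named by rule: Foxc1 and Foxp2, the 3 lowest p-values in each genotype contrast, the 6 largest F between litters, and the 6 largest called changes each way between stages. Further members detected at either stage were named with a change or range. Lists covered telencephalon, floor plate and midbrain, diencephalon, cilia, mitosis, FoxO, FoxP and cell types. Same-numbered replicates were not treated as pairs in the main fits. After group means were removed, 11 of 15 embryonic and 1 of 3 adult pairs correlated above 0.1, from -0.46 to 0.74. Litter was not removed, so these correlations cannot tell pairing from a shared litter.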

Additional observations from a re-analysis of the deposited data

Results flagged for a closer look

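Within each genotype group of 4 to 6 mice, the named forkhead probes were searched for 1 sample far from the others by Dixon's criterion, in 63 combinations of probe and group, and 2 were found. Chance flags about 1 in 20 such groups. The Foxj3 probe ILMN_2903484 was 8.48 in adult heterozygous male 4, with the nearest of the other 3 at 8.19. The Foxm1 probe ILMN_2731974 was 9.63 in E12.5 wild type female 1 (litter 551), with the nearest of the other 4 at 9.90.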

How the results depend on the processing

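Each of the 7 comparisons was rerun under several alternatives other than leaving out single mice. Where the main count was 0, as in every genotype comparison, a rerun that also gave 0 was counted as unchanged. In 71 reruns the count of forkhead probes past the threshold was unchanged or within 1.5 times, and 2 gave a count further off. Both concerned the litters, with 5 calls among males only and 3 without litter 551 in place of 13, with fewer samples in each. Leaving out 1 mouse at a time gave 10 to 14 calls between litters, 21 to 24 between stages and 0 to 0 in each genotype comparison, the heterozygote effect between stages included. With the replicate number as a block, the calls were 0 in each E12.5 genotype comparison, 0 in adults, 21 between stages and 0 for the heterozygote effect between stages. Named probes lost a call in 6 cases other than leaving out single mice. Among males only, the F of Foxc1 was 8.84 (limma, adjusted p = 0.0574) and that of Foxs1 7.11 (adjusted p = 0.0760). Without litter 551, most of the probes named for their F between litters were not called, since 3 forkhead probes were called in all. Changes of sign occurred for Foxp2 ILMN_2659660 alone among named probes. Its heterozygote change at E12.5 was -0.22 in males only. Its difference between stages, -0.02, was 0.38 in males only and 0.0608 without litter 551, and it ran from -0.15 to 0.15 with single mice left out, above 0 in 8 of 23 cases. The cause was not tested. Over all probes, calls for homozygotes against wild types ran from 2 (males only) to 9 beside 7, those against heterozygotes from 2 (without litter 549) to 14 beside 10, those between litters from 1286 (without litter 551) to 5770 beside 4878, those in adults from 0 to 2 and those for the heterozygote effect between stages from 0 to 4. Litter as a random block gave a correlation of 0.38 within litters. The slide as a block was not run because the headers used here give none. Signals near background, as for Foxs1, Foxp3, Foxd1 and adult Foxm1, limit what can be read of them.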
